A study of Mus musculus with 6 samples.

Results

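The 10 genes described here encode the sarcomeric troponins and tropomyosins: the troponin T genes Tnnt1, Tnnt2 and Tnnt3, the troponin I genes Tnni1, Tnni2 and Tnni3, the troponin C gene Tnnc1, and the tropomyosin genes Tpm1, Tpm2 and Tpm3. They were found by matching Ensembl gene IDs to these symbols through the GENCODE M21 annotation, and all 10 were found among the 54532 rows of the expression table. RNA-seq was performed on cardiomyocytes, the contractile cells of the heart, isolated from newborn mice with an inducible Rit1 M90I allele. Cultures received adenovirus on day 3 after isolation, either the GFP control (AdGFP, labelled Rit1 +/+) or a virus that also delivers Cre recombinase (AdCre, labelled Rit1 M90I/+), and each group held 3 samples numbered 1 to 3. Both viruses carry GFP. Wild-type cells given Cre were not among the samples, so effects of M90I and of the recombinase cannot be told apart. About a heart's worth of cells went into each well after a pre-plating step that removes part of the non-muscle cells. The labels call the samples biological replicates but do not say whether those of a group came from separate animals or isolations, so p-values measure the spread between these samples.

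Troponin and tropomyosin make the contraction of striated muscle depend on calcium. Tropomyosin lies along the actin filament and covers the sites to which myosin binds. Troponin C binds calcium, troponin I holds the filament in its blocked state until calcium arrives, and troponin T ties both to tropomyosin. Each subunit has versions encoded by separate genes: Tnnt2, Tnni3 and Tpm1 are the main ones of the adult heart, Tnnt1 and Tnni1 those of slow skeletal muscle, and Tnnt3 and Tnni2 those of fast skeletal muscle. Tnnc1 serves both heart and slow muscle. Tnni1 is also the troponin I of the fetal heart, and Tnni3 replaces it around and after birth.

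Transcripts of the cardiac genes Tnnt2 and Tnni3 were lower in every AdCre sample than in any AdGFP sample, while those of the fast skeletal genes Tnnt3 and Tnni2 were higher in every AdCre sample. By group means, Tnnt2 was 1.65 times and Tnni3 1.76 times lower, and Tnnt3 was 3.46 times and Tnni2 3.30 times higher in AdCre. Tnni1, the fetal troponin I, stayed near the same level in both groups, so its share of troponin I transcript went from 26.7% to 37.3%. Without the replicate number in the model, none of these differences passed an adjusted p of 0.05. With it, Tnnt2, Tnni3, Tnnt3, Tnni2 and Tnnt1 passed, but none of them did in that model without the third pair of samples or without a trend of variance with level, Tnnt3 alone did without the filter on low values, and Tnnt1 did not when any pair was left out.

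Values are FPKM, that is fragments divided by exon length in kilobases and by depth, with 25.3 to 26.5 M reads (M, megareads) behind each AdGFP sample and 25.9 to 32.4 M reads behind each AdCre sample. Fold changes are given on the scale of log2(FPKM + 0.1), which understates those of low genes. They were fitted with limma over 13794 genes and adjusted by the Benjamini-Hochberg method. Same-numbered samples of AdGFP and AdCre deviated together from their group means, so the fit with the number as a block (the blocked fit, which compares within the 3 pairs) is given wherever it changes a call. Rit1 itself lay between 7.66 and 9.01 FPKM in AdGFP and between 8.90 and 9.58 FPKM in AdCre, and reads of the M90I and wild-type alleles are summed in these values.

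Troponin I is given first. Its genes encode the same subunit but differ in sequence, and the start of the coding sequence carries a difference with a known function. Tnni3 encodes an extension in which protein kinase A phosphorylates adjacent serines, a target of adrenergic signals in the heart. The first 120 bases of the coding sequences, taken from the GENCODE M21 transcripts (GRCm38), are shown with the bases of this site in capitals (bases 58 to 72 of Tnni3, counted from the A of the start codon).
Tnni3: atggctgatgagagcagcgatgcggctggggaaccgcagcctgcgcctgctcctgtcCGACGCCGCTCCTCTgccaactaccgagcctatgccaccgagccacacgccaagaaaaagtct
Tnni1: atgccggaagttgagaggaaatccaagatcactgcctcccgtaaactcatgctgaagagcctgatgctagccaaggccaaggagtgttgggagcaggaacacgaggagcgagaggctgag
Tnni2: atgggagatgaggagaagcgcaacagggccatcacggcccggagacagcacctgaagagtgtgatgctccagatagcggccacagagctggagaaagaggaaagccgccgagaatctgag
These 15 bases did not occur in the coding sequence of Tnni1 or Tnni2. The coding sequences are 633 bases long in Tnni3, 561 in Tnni1 and 546 in Tnni2. Aligned bases were identical at 69.7% between Tnni1 and Tnni3, at 71.4% between Tnni2 and Tnni3 and at 72.4% between Tnni1 and Tnni2.

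Tnni3 (ENSMUSG00000035458, chromosome 7, 4518305 to 4524229, GRCm38), the cardiac troponin I, read 277, 255 and 163 FPKM in AdGFP 1 to 3 and 151, 154 and 89.0 FPKM in AdCre 1 to 3. All AdCre samples lay below all AdGFP samples, and the sample numbered 3 was the lowest of its group on both sides. In limma the log2 fold change was -0.82 (standard error, SE, 0.29, adjusted p 0.416), and in the blocked fit the SE was 0.08 and the adjusted p 0.0120. The 3 pairs gave -0.87, -0.73 and -0.87. Dnaaf3, which lies beside it, overlaps 4.17% of its exon bases on the same strand, and Dnaaf3 stood at a mean of 0.814 FPKM in AdGFP.

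Tnni1 (ENSMUSG00000026418, chromosome 1, 135779434 to 135810989), the slow skeletal and fetal cardiac troponin I, read 101, 91.2 and 62.1 FPKM in AdGFP and 95.5, 93.4 and 57.3 FPKM in AdCre. The groups overlapped, and in each of them replicate 3 was again the lowest. The log2 fold change was -0.06 with a 95% interval from -0.68 to 0.57 (limma adjusted p 0.977), and from -0.23 to 0.13 in the blocked fit (adjusted p 0.692). Over the alternatives tried it ran from -0.26 to 0.19, so its sign depended on the scaling and on single samples.

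Tnni2 (ENSMUSG00000031097, chromosome 7, 142441808 to 142444410), the fast skeletal troponin I, was low throughout, at 1.46, 2.42 and 2.09 FPKM in AdGFP and 8.53, 4.71 and 6.49 FPKM in AdCre. Between 54 and 409 reads lay behind these values. The lowest AdCre sample was still above the highest AdGFP sample. In limma the log2 fold change was 1.66 (SE 0.27, adjusted p 0.144), which passed in the blocked fit (adjusted p 0.0336). The pairs gave 2.47, 0.93 and 1.59, a wider spread than in Tnni3.

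The ratio of troponin I transcripts within a sample does not depend on how samples were scaled to each other. Tnni1 stood at 0.366, 0.357 and 0.383 of Tnni3 in AdGFP 1 to 3 and at 0.632, 0.606 and 0.644 of it in AdCre 1 to 3. The gap between the groups was several times the range within either, and each group was tight although the levels of both genes differed between its samples. The ratio was 1.70 times higher in AdCre (log2 difference 0.77, with SDs of 0.05 in both groups). An exact two-sided permutation test gave p = 0.1, the smallest that 3 samples against 3 allow, and 0.133 after adjustment over the 8 ratios compared. The pairs gave 0.79, 0.76 and 0.75 on the log2 scale. Tnni2 stood at between 0.00564 and 0.0134 of Tnni3 in AdGFP and between 0.0312 and 0.0739 of it in AdCre, a difference of 5.60 times with the same exact p of 0.1.

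As shares of summed troponin I FPKM, Tnni3 held 73.0%, 73.2% and 71.7% in AdGFP and 59.2%, 61.1% and 58.3% in AdCre. Tnni1 held between 26.1% and 27.4% in AdGFP and between 37.0% and 37.5% in AdCre. Tnni2 held 0.67% ± 0.27 and 3.15% ± 1.20 (mean ± SD, n = 3 each). FPKM divides by all exon bases of a gene, and for Tnni1 these are 3.13 times as long as its principal transcript, against 2.26 times for Tnni3. Per kilobase of the principal transcript, Tnni1 therefore held more, 33.6% ± 0.72 in AdGFP and 45.3% ± 0.32 in AdCre (n = 3 each), and Tnni3 went from 65.9% to 52.2%.

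**Figure D1:**
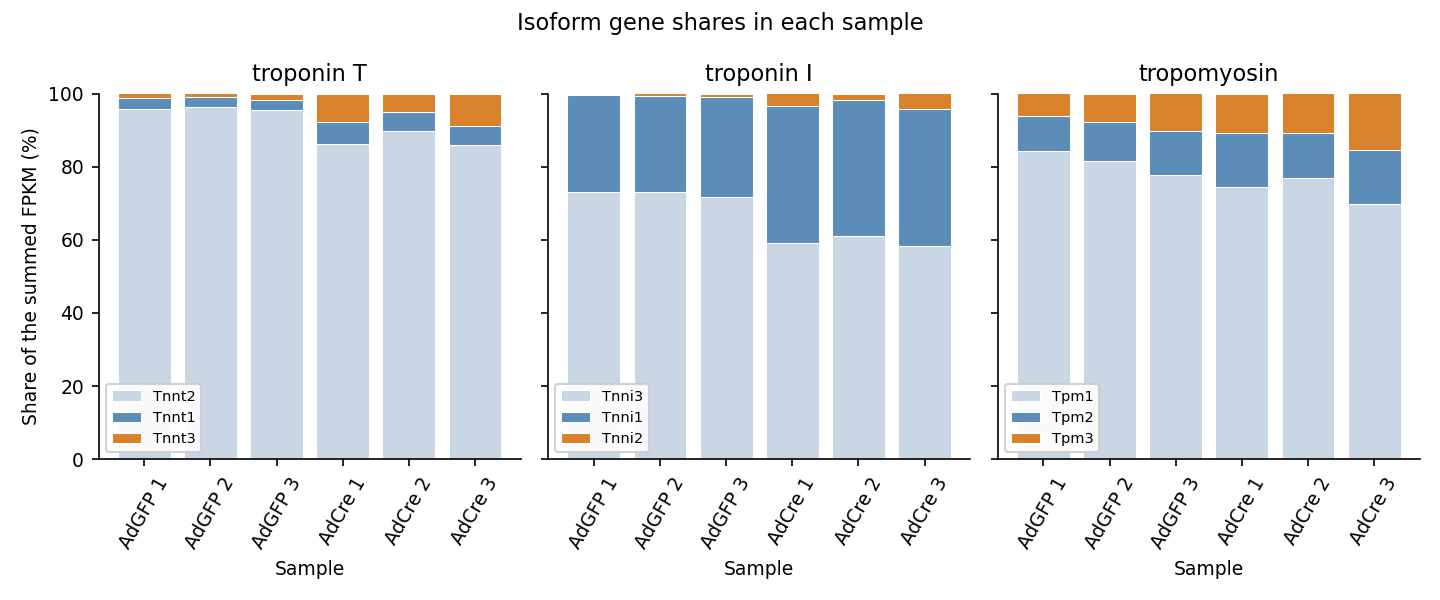
Share of each gene in the summed FPKM of troponin T, troponin I and tropomyosin (percent, vertical axis) in each of the 6 samples (horizontal axis). The gene that held most of each sum held less of it in each AdCre sample than in any AdGFP sample, with Tnni3 at between 71.7% and 73.2% in AdGFP and between 58.3% and 61.1% in AdCre.

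In troponin T, the cardiac gene was lower and the fast skeletal gene higher in every AdCre sample, and the slow skeletal gene was higher within each pair. Tnnt2 (ENSMUSG00000026414, chromosome 1, 135836354 to 135852260), the cardiac troponin T and a standard marker of cardiomyocytes, read 537, 498 and 331 FPKM in AdGFP and 305, 314 and 210 FPKM in AdCre. The groups did not overlap, although AdGFP 3 lay close to AdCre 1 and 2. In limma the log2 fold change was -0.71 (SE 0.25, adjusted p 0.416), which passed in the blocked fit (SE 0.08, adjusted p 0.0168), with pairs at -0.82, -0.66 and -0.66. In a culture measured as a whole, fewer cardiomyocytes and less of a transcript per cardiomyocyte cannot be told apart.

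Tnnt3 (ENSMUSG00000061723, chromosome 7, 142498836 to 142516009), the fast skeletal troponin T, read 7.59, 5.23 and 6.43 FPKM in AdGFP and 27.7, 17.2 and 21.6 FPKM in AdCre. Every AdCre sample was more than 2-fold above every AdGFP sample. Its log2 fold change of 1.76 (SE 0.21) was the largest of the 10 genes and had the smallest adjusted p among them, 0.102 in limma without the block and 0.0051 with it. The order against Tnni2 (1.66) was not stable. Without AdGFP 2, Tnni2 was at 1.81 and Tnnt3 at 1.63, and in the blocked fit without replicate 2 they were at 2.03 and 1.79. The pairs gave 1.85, 1.70 and 1.73.

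Tnnt1 (ENSMUSG00000064179, chromosome 7, 4504570 to 4516382), the slow skeletal troponin T, read 16.9, 13.8 and 8.80 FPKM in AdGFP and 21.5, 18.1 and 12.8 FPKM in AdCre. The groups overlapped, since AdCre 3 was below AdGFP 1 and 2, but AdCre was the higher sample within each pair, by 0.35, 0.40 and 0.53 on the log2 scale. The log2 fold change was 0.43 with a 95% interval from -0.24 to 1.10 without the block (limma adjusted p 0.689), and from 0.23 to 0.63 with it (adjusted p 0.0428). Without AdGFP 3 the fold change was 0.17, and without AdCre 1 it was 0.26.

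Against Tnnt2 in the same sample, Tnnt3 stood at 0.0143, 0.0107 and 0.0197 in AdGFP and at 0.0911, 0.0551 and 0.104 in AdCre, 5.56 times higher. Tnnt1 stood at 0.0316, 0.0279 and 0.0269 of Tnnt2 in AdGFP and at 0.0710, 0.0581 and 0.0613 in AdCre, 2.20 times higher. Neither ratio overlapped between the groups, and each had an exact permutation p of 0.1, two-sided (0.133 adjusted). Tnnt2 held 95.9% ± 0.41 of summed troponin T FPKM in AdGFP and 87.3% ± 2.24 in AdCre (n = 3 each). Tnnt3 went from 1.41% ± 0.43 to 7.20% ± 2.04, and Tnnt1 from 2.74% ± 0.24 to 5.50% ± 0.50. The size of the Tnnt2 share depends strongly on length, because the exon bases counted for Tnnt2 are 7.07 times its principal transcript. Per kilobase of the principal transcript Tnnt2 held 98.8% in AdGFP and 96.4% in AdCre, Tnnt3 0.323% and 1.78%, and Tnnt1 0.857% and 1.85%. By FPKM Tnnt3 was above Tnnt1 in AdCre with overlap of their ranges, and per kilobase of the principal transcript Tnnt1 had the higher mean share in both groups.

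**Figure D2:**
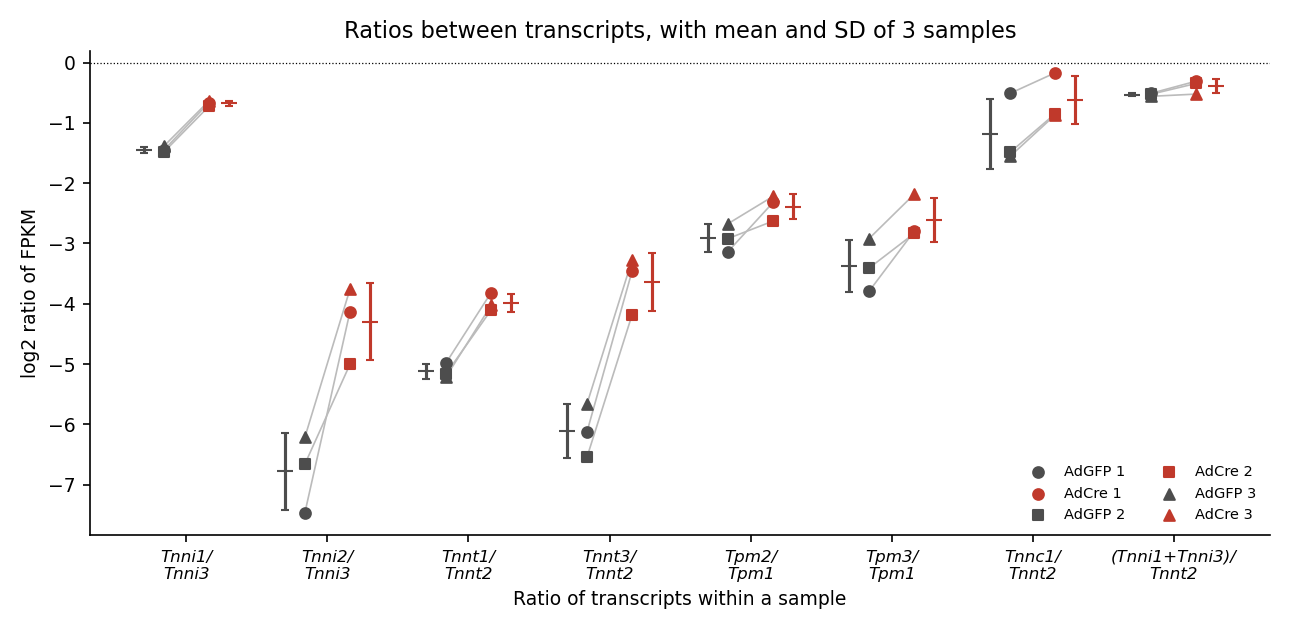
Ratio of transcripts within a sample (log2 ratio of FPKM, vertical axis) for the 8 ratios compared, with lines joining same-numbered samples and bars giving the mean and SD of 3 samples. In the first 6 ratios the AdCre samples all lie above the AdGFP samples, while Tnnc1/Tnnt2 and (Tnni1+Tnni3)/Tnnt2 overlap between the groups. The denominators Tnni3, Tnnt2 and Tpm1 had log2 fold changes of -0.82, -0.71 and -0.41, so a gene at an unchanged level also rises against them. The share of all genes whose ratio to these denominators does not overlap was not computed.

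Tnnc1 (ENSMUSG00000091898, chromosome 14, 31208312 to 31211729), the troponin C of heart and slow muscle, read 377, 178 and 113 FPKM in AdGFP and 272, 175 and 115 FPKM in AdCre. The spread within a group was far larger than the difference between them, with replicate 1 the highest in both. The log2 fold change was -0.16 with a 95% interval from -1.30 to 0.99 (limma adjusted p 0.962), and from -0.45 to 0.13 in the blocked fit (adjusted p 0.468). It turned to 0.32 without AdGFP 1. Relative to Tnnt2, Tnnc1 was higher in AdCre within all 3 pairs, but the groups overlapped (log2 difference 0.56, exact two-sided permutation p 0.3). This difference was 0.33 without AdCre 1, 0.37 without AdGFP 3 and 0.89 without AdGFP 1. The summed Tnni1 and Tnni3 stood at between 0.679 and 0.703 of Tnnt2 in AdGFP and between 0.697 and 0.809 of it in AdCre (log2 difference 0.14, exact permutation p 0.2). In reads not divided by length the difference was 0.24 and the exact p 0.1. The fast skeletal troponin C gene, Tnnc2, was at 0 in 5 of the 6 samples and had 3 reads in AdCre 3, so no level of it was detectable at this depth. Of its exon bases, 74% are overlapped by Ube2c on the opposite strand.

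**Figure D3:**
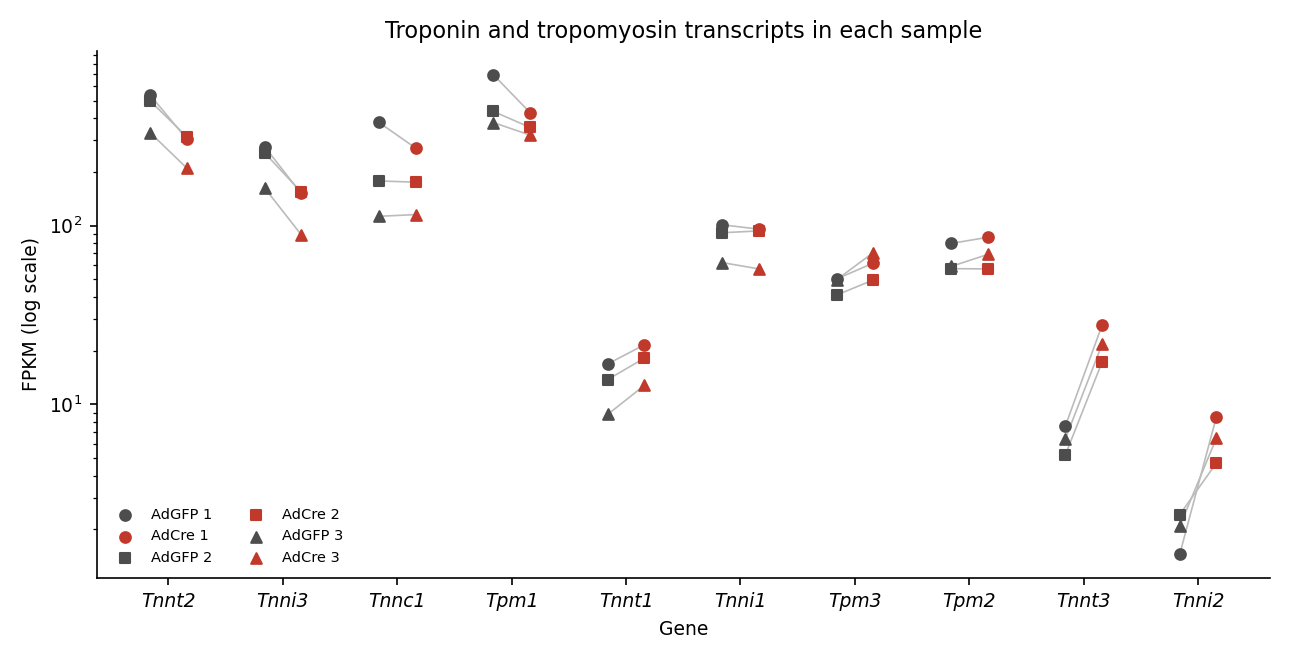
Level of the 10 transcripts (FPKM, log scale, vertical axis) in the AdGFP (grey) and AdCre (red) samples, with lines joining same-numbered samples. Tnnt2 and Tnni3 lie lower and Tnnt3 and Tnni2 higher in all AdCre samples, while the other 6 genes overlap between the groups.

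Among the tropomyosins, Tpm1 (ENSMUSG00000032366, chromosome 9, 67022590 to 67049406), which gives the main striated muscle tropomyosin of the heart and, by alternative splicing, also non-muscle forms, read 698, 435 and 377 FPKM in AdGFP and 429, 354 and 321 FPKM in AdCre. It was lower in AdCre within each pair, but AdCre 1 lay between AdGFP 2 and AdGFP 3. The log2 fold change was -0.41 with a 95% interval from -1.02 to 0.20 (limma adjusted p 0.672, and 0.0986 with the block), and it was -0.15 without AdGFP 1. Gene-level values pool all splice forms, of which GENCODE M21 lists 21 for Tpm1, 6 for Tpm2 and 16 for Tpm3, so muscle and non-muscle tropomyosin of the same gene were not separated.

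Tpm2 (ENSMUSG00000028464, chromosome 4, 43514711 to 43523765), found in skeletal and smooth muscle, read 79.4, 57.4 and 59.1 FPKM in AdGFP and 86.0, 57.2 and 68.9 FPKM in AdCre. The log2 fold change of 0.11 had a 95% interval from -0.36 to 0.58 (limma adjusted p 0.915), and it was -0.04 without AdCre 1. Tpm3 (ENSMUSG00000027940, chromosome 3, 90072649 to 90100902), which gives slow muscle and widespread non-muscle forms, read 50.3, 40.9 and 49.8 FPKM in AdGFP and 61.7, 49.6 and 70.6 FPKM in AdCre. It was higher in AdCre within each pair, with a log2 fold change of 0.36 and a 95% interval from -0.04 to 0.75 (limma adjusted p 0.536, and 0.0601 with the block). Tpm3 passed in 4 of the 15 versions of the blocked fit that were run. Of the 50-base words in Tpm3 transcripts, 23.2% also occur in other transcripts, mostly of Tpm3-rs7, so reads may have been split between them, and its level is uncertain.

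Relative to Tpm1, Tpm2 stood at 0.114, 0.132 and 0.157 in AdGFP and at 0.201, 0.162 and 0.215 in AdCre. The lowest AdCre value was just above the highest AdGFP value, and the log2 difference was 0.52. Tpm3 stood at 0.0722, 0.0942 and 0.132 of Tpm1 in AdGFP and at 0.144, 0.140 and 0.220 in AdCre, a log2 difference of 0.77. Both gave an exact two-sided permutation p of 0.1. Tpm1 held 81.2% ± 3.39 of the FPKM of these 3 genes in AdGFP and 73.6% ± 3.63 in AdCre (n = 3 each). When Tpm4, a non-muscle tropomyosin that read 298 to 339 FPKM in AdGFP and 343 to 396 FPKM in AdCre, was counted in the sum, the Tpm1 share was 53.3% ± 8.21 and 42.7% ± 4.71 and the groups overlapped.

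Ordered by mean FPKM in AdGFP, the genes ran Tpm1, Tnnt2, Tnni3, Tnnc1, Tnni1, Tpm2, Tpm3, Tnnt1, Tnnt3 and Tnni2. The ranges of neighbours overlapped for Tpm1 with Tnnt2, Tnni3 with Tnnc1, and Tnni1 with Tpm2. In AdCre, Tnnc1 came before Tnni3 and Tnnt3 before Tnnt1 (an order that turns per kilobase of the principal transcript), and each gene from Tnnt2 down to Tpm2 overlapped with the next. Because FPKM is per kilobase of all exon bases, this order also depends on how many exon bases are counted, and per kilobase of the principal transcript Tnnt2 came first in both groups, at a mean of 3217 in AdGFP and 1953 in AdCre, ahead of Tpm1 at 1719 and 1257.

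Counted over the 10 genes, 0 passed in limma without the block, where 0.00725% of all genes tested did, and 4 (Tnnt2, Tnni3, Tnnt3 and Tnni2) had an unadjusted p under 0.05, where 10.2% of all genes did (5.45% as lower and 4.71% as higher). In the blocked fit 5 passed, where 6.15% of all genes did. Tnnt1, Tnnt3 and Tnni2 rose, where 2.64% of all genes did, and Tnnt2 and Tnni3 fell, where 3.51% did. Over all genes 364 were called higher and 484 lower in that fit, a split that depends on scaling, since 538 of 875 calls were higher after rescaling to TPM. The groups did not overlap for 4 of the 10, against 15.4% of all genes, and of these 2 were lower (8.02% of all genes) and 2 higher (7.36%). All 3 pairs moved one way for 7 of the 10, against 48.4% of all genes, with 3 lower (24.5%) and 4 higher (23.9%). The median log2 fold change was 0.03 over the 10 genes and 0.00 over all genes tested. Blocked calls depended on the pairs over all genes as over these. Without the third pair 1 of 13794 genes and none of the 10 passed, with adjusted p-values of the 5 from 0.0674 to 0.171 and log2 fold changes of 1.78 for Tnnt3, 1.70 for Tnni2, 0.37 for Tnnt1, -0.74 for Tnnt2 and -0.80 for Tnni3. Without the second pair 149 genes passed, among them Tnni2, Tnni3 and Tnnt3, and without the first 772, among them all of the 5 but Tnnt1.

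**Figure D4:**
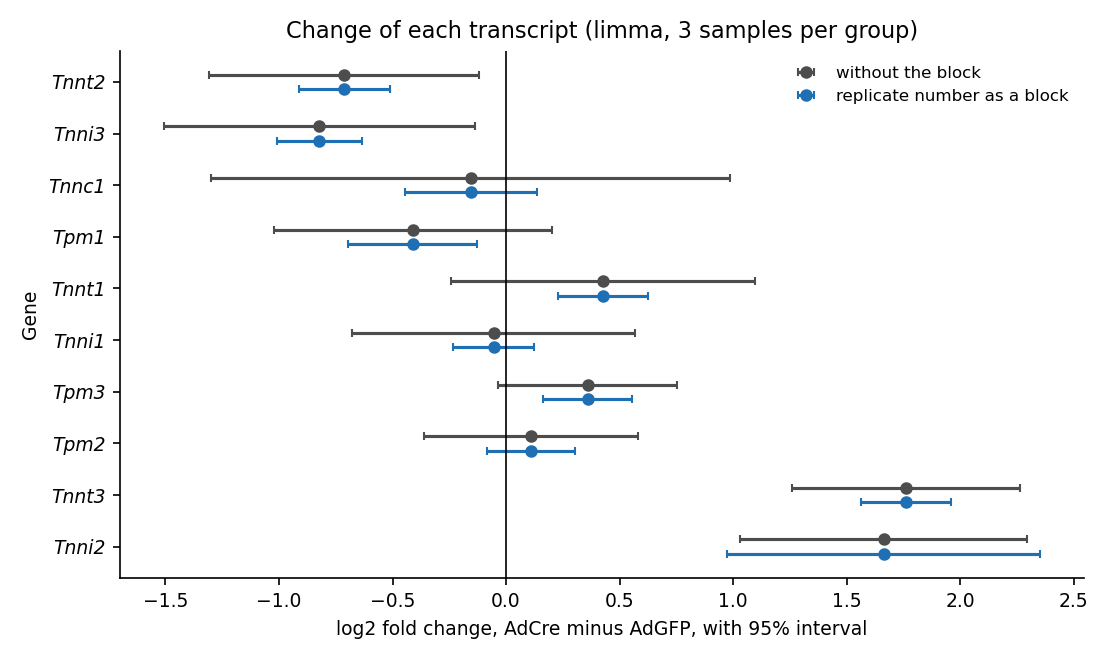
Log2 fold change of each gene (AdCre minus AdGFP, horizontal axis) with its 95% interval from limma, without the block (grey) and with the replicate number as a block (blue), 3 samples per group. The intervals of Tnnt2 and Tnni3 lie below 0 and those of Tnnt3 and Tnni2 above 0 in both fits, those of Tpm1, Tnnt1 and Tpm3 clear 0 with the block alone, and those of Tnnc1, Tnni1 and Tpm2 include 0 in both.

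Other cardiomyocyte transcripts were also lower in AdCre on average, though most overlapped between the groups. All 14 cardiomyocyte markers examined, among them myosin, titin and calcium handling genes, were lower in AdCre on average, with a median log2 fold change of -0.61. In the blocked fit 8 of them (Myl2, Actn2, Ryr2, Pln, Atp2a2, Nppa, Casq2 and Tcap) passed as lower, where 3.51% of all genes did. Without the block 0 passed, and 6 were lower at an unadjusted p under 0.05, where 5.45% of all genes were. For 5 of the 14 every AdCre sample lay below every AdGFP sample, against 8.02% of all genes. Myl7, Mb and Myh7 had log2 fold changes of -0.22, -0.31 and -0.24, with blocked adjusted p-values in limma of 0.331, 0.456 and 0.497. The summed level of the 14 markers was 5092 to 7943 FPKM in AdGFP and 3230 to 5491 FPKM in AdCre, and none was at 0. Set against the mean log2 level of these markers in the same sample, which was 0.69 lower in AdCre, Tnnt2 differed between the groups by -0.02 and Tnni3 by -0.13, with overlap. On the same relative scale Tnni1 was 0.63, Tnnt1 1.12, Tnni2 2.35, Tnnt3 2.45 and Tpm3 1.05 higher in AdCre, each without overlap. Tpm1 at 0.28, Tnnc1 at 0.53 and Tpm2 at 0.80 overlapped. A gene at an unchanged level reads 0.69 higher on this scale, and Tnni1 at 0.63 was no higher than that. The share of all genes without overlap on this scale was not computed. These relative values are descriptions, and what part the number of cardiomyocytes had in them was not tested.

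Markers of other cells were read beside the genes that were higher in AdCre. Of 13 skeletal muscle markers only Mylpf and Casq1 reached the level needed for testing, and Mylpf did so through AdCre alone (4 to 16 reads in AdGFP, 14 to 25 in AdCre). Casq1 had a log2 fold change of -0.37 (limma adjusted p 0.589, and 0.148 with the block). Myod1, Myog, Myf5, Myf6 and Pax7, the transcription factors of the skeletal lineage, did not exceed 9 reads in a sample, and the fast myosin genes Myh2 and Myh4 were at 0 in all but 3 of their values. Other members of the list had few reads and went both ways, with the groups apart. Myh3 (0 to 11 reads in AdGFP, 20 to 24 in AdCre) and Atp2a1 (5 to 16, and 22 to 35) were higher in AdCre, and Myh1 (16 to 39, and 3 to 13) and Myh8 (12 to 22, and 1 to 5) were lower. The summed level of the list was 43.9 to 63.7 FPKM in AdGFP and 34.4 to 47.0 FPKM in AdCre, nearly all of it Casq1. Of 8 smooth muscle markers 3 were higher and 5 lower (sum 769 to 1251 FPKM in AdGFP, 904 to 1148 FPKM in AdCre), and Myocd, which is also in the list of regulators, passed as lower in the blocked fit. Of 9 fibroblast markers 2 were higher and 7 lower (2601 to 4662 FPKM and 2287 to 3345 FPKM), with Col3a1, Dcn and Lum passing as lower. All 8 endothelial markers were higher (48.2 to 78.1 FPKM and 67.4 to 104 FPKM), with Cdh5, Flt1 and Egfl7 passing. Of 6 epicardial or mesothelial markers 3, all keratins, were higher and 3 lower (sum 209 to 332 FPKM and 360 to 440 FPKM, median log2 fold change -0.01), with Krt8 and Krt18 passing as higher and Wt1 at -0.38, Upk3b at -0.66 and Msln at -1.08, and of 6 macrophage markers the 5 tested were higher (44.2 to 244 FPKM and 79.6 to 305 FPKM), with Lyz2 passing. Markers that passed in the blocked fit are named after their values were seen, and none of those in these lists passed without the block. Over all genes 2.64% passed as higher and 3.51% as lower in the blocked fit. None of the markers in these lists was at 0 in all samples. The part of these cells in the troponin and tropomyosin values was not tested.

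Among 15 partners of the thin filament, 12 were tested, of which 5 were higher and 7 lower in AdCre, with a median log2 fold change of -0.27. None passed without the block. With it Acta1 passed as higher, where 2.64% of all genes did, and Lmod2, Nebl and Nrap as lower, where 3.51% did. The 3 with the smallest p were Actc1, Lmod2 and Nebl. Actc1, the cardiac actin on which troponin and tropomyosin sit, read 4943, 3141 and 2686 FPKM in AdGFP and 1186, 2236 and 1344 FPKM in AdCre, a log2 fold change of -1.18 (limma adjusted p 0.338, and 0.0726 with the block). Lmod2, a leiomodin that promotes growth of the filament at its pointed end, had a log2 fold change of -0.90 (adjusted p 0.341, and 0.0169 with the block). For Nebl, nebulette, a nebulin relative of the heart, it was -0.50 (0.344 and 0.0405). Acta1, the skeletal muscle actin, is named after its values were seen: it read 263, 37.5 and 16.6 FPKM in AdGFP and 470, 222 and 88.2 FPKM in AdCre (log2 fold change 1.94, adjusted p 0.61, and 0.0346 with the block). The groups did not overlap for the cardiac actin gene and did for the skeletal one.

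Of 21 transcription and splicing factors known to act on troponin and tropomyosin genes, all were tested, 7 were higher and 14 lower, and the median log2 fold change was -0.29. None passed without the block, where 6 were lower at an unadjusted p under 0.05 (5.45% of all genes were). With the block 4 passed as lower (3.51% of all genes did), Rbm24, Nkx2-5, Myocd and Rbm20. The smallest p-values were those of Celf2, Rbm24 and Nkx2-5. Celf2, a splicing factor of the family that regulates the exons of Tnnt2, read 6.98, 6.67 and 6.54 FPKM in AdGFP and 4.24, 5.41 and 4.70 FPKM in AdCre (log2 fold change -0.49, limma adjusted p 0.312, and 0.0629 with the block). Rbm24, a muscle splicing factor, had a log2 fold change of -0.93 (0.321 and 0.0122), and Nkx2-5, a transcription factor of cardiac lineage, one of -0.69 (0.340 and 0.0188). In all 3, every AdCre sample was below every AdGFP sample. Srf, which activates sarcomere genes together with myocardin, had a log2 fold change of 0.01, and Tead1, which binds the MCAT element, one of 0.15, both with overlap of the groups. Of the factors that bind GATA elements, Gata6 was lower in every AdCre sample (-0.44, limma adjusted p 0.469) and Gata4 was at -0.29 with overlap. Of those that bind MEF2 elements, Mef2a was higher in every AdCre sample (0.22, limma adjusted p 0.624), while Mef2c at -0.37 and Mef2d at 0.01 overlapped. None of these factors, which belong to elements other than the E-box, passed with the block, and they were chosen after their values were seen. In the whole list 7 factors were lower in every AdCre sample (8.02% of all genes were) and 1 was higher (7.36%). Hand2, not named above, was among the 7, at -0.41 (limma adjusted p 0.505, and 0.0511 with the block).

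The troponin genes lie in pairs, each made of a troponin I and a troponin T gene. Tnnt1 and Tnni3 are 1.92 kb apart on chromosome 7 with no gene between, Tnni1 and Tnnt2 are 25.4 kb apart on chromosome 1 with Lad1 between, and Tnni2 and Tnnt3 are 54.4 kb apart on chromosome 7 with Lsp1 between and Prr33 reaching from there into Tnnt3. In the pairs Tnnt1 and Tnni3, and Tnni1 and Tnnt2, the cardiac gene was lower in every AdCre sample and the other gene overlapped between the groups. In the pair Tnni2 and Tnnt3 both were higher in every AdCre sample.

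The windows before the start sites are shown for the first 4 genes of these pairs, because each pair holds a cardiac gene that was lower in every AdCre sample beside a gene whose groups overlapped. Sequences are from RefSeq (GRCm38.p6), whose table held windows for 8 of the 10 genes but not for Tnnt3 or Tnni2. Each runs 5′ to 3′ on the strand of the gene, up to 250 bases before the start site, with exon bases left out. The table has a second window for Tnni1, which overlaps the first, and for Tnnt2, which holds exon bases alone, and these are not shown. Capitals mark matches to the MCAT element CATTCC, to the GATA elements AGATAA or AGATAG or TGATAA or TGATAG, and to the E-box CANNTG, on either strand.
Tnnt2, chr1:135836084-135836333, plus strand: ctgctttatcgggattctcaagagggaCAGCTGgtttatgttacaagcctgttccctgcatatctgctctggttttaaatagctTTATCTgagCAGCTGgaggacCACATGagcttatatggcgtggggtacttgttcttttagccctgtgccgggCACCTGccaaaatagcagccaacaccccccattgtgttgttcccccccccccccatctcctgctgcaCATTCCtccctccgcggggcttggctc
Tnni1, chr1:135799171-135799401, plus strand: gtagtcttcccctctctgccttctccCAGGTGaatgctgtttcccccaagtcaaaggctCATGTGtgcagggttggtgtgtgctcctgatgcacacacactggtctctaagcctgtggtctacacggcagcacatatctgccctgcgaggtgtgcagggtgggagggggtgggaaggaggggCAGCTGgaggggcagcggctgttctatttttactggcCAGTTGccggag
Tnni3, chr7:4522529-4522694, minus strand: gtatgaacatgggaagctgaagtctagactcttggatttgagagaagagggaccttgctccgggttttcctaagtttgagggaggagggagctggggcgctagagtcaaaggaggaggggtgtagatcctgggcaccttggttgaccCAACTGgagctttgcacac
Tnnt1, chr7:4516005-4516225, minus strand: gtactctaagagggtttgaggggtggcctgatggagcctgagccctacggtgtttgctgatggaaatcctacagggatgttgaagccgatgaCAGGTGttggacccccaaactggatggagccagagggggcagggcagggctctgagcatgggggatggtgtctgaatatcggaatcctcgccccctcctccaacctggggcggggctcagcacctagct
The Tnnt2 window shown holds 1 MCAT, 1 GATA and 4 E-box matches. The other 3 windows hold E-box matches alone, 4 in Tnni1 and 1 each in Tnni3 and Tnnt1. Of 32851 promoter windows of 250 bases in the table, 12.6% hold an MCAT, 26.5% a GATA and 66.2% an E-box match. MEF2 and CArG elements, found in 0.508% and 1.47% of the windows, were searched by name and matched in none of the members' windows. The 11 windows of the members hold matches at 23 distinct positions, none of which overlap each other. A match describes letters in a window and shows no binding.

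The other genes within 100 kb of the pairs are counted where both groups had a mean of at least 0.5 FPKM. Around Tnni2 and Tnnt3, 4 of 6 were higher in AdCre, with a median log2 fold change of 0.11 and a range from -0.20 to 0.40. Syt8, a synaptotagmin gene next to Tnni2, named after its values were seen, read 0.192, 0.146 and 0.107 FPKM in AdGFP and 1.12, 0.634 and 0.896 FPKM in AdCre (log2 fold change 1.97). It rested on 5 to 9 reads in AdGFP and 31 to 68 in AdCre, and it reached the mean of 0.5 FPKM needed for testing through AdCre alone, so its blocked adjusted p of 0.0430 in limma is no support and its value is a description. Lsp1, which lies between Tnni2 and Tnnt3, had a log2 fold change of 0.01. Around Tnni1 and Tnnt2, 4 of 5 were higher, with a median of 0.46 and a range from 0.00 to 0.80. Lad1, which lies between this pair, was at 0.72, Gm38399 at 0.46 and Pkp1 at 0.80, each higher in every AdCre sample (7.36% of all genes were). Their blocked adjusted p-values in limma were 0.0856, 0.0819 and 0.0988, and Csrp1 and Phlda3 overlapped between the groups. Around Tnnt1 and Tnni3, 1 of 3 was higher, with a median of -0.05 and a range from -0.09 to 0.28, and Syt5, above that level in AdGFP alone, had a log2 fold change of -0.30. Apart from Syt8, none of the genes around the 3 pairs passed in the blocked fit.

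**Figure D5:**
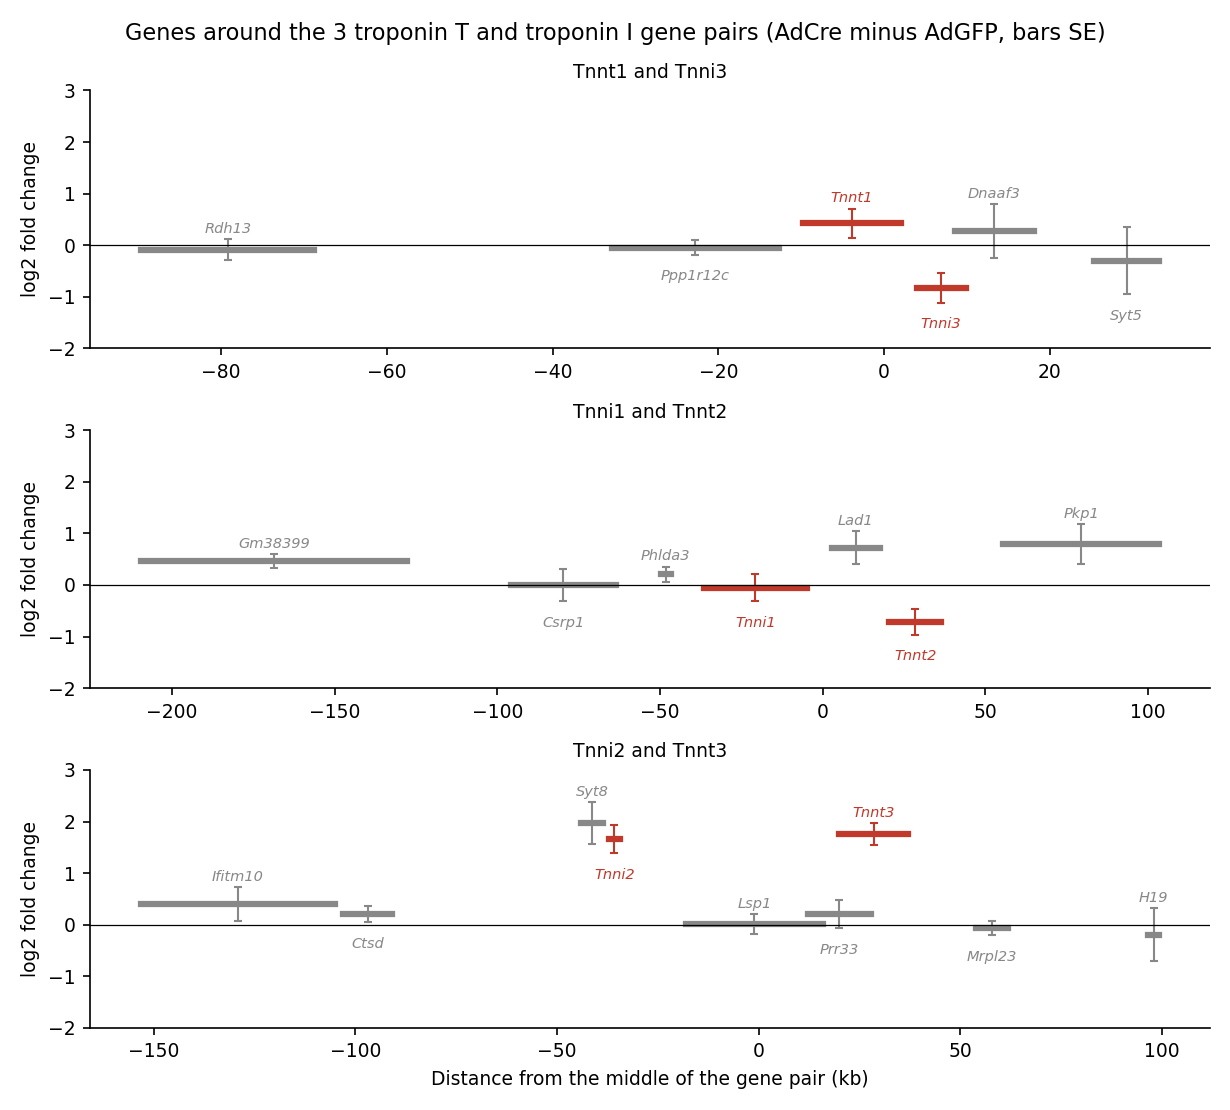
Log2 fold change (AdCre minus AdGFP, vertical axis, vertical bars 1 SE from limma without the block) of genes within 100 kb of the 3 gene pairs, drawn at their distance from the middle of the pair (kb, horizontal axis). Troponin genes are red and the others grey, and Syt8 at 1.97 lies beside Tnni2 at 1.66 while Lsp1 between Tnni2 and Tnnt3 lies at 0.01.

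For Tnnt2, Tnni1 and Tpm2, the protein-coding genes with the most similar profile over the 6 samples were found among 7249 genes averaging at least 5 FPKM, by the root mean square difference of centred log2 values. Nearest to Tnnt2 were Bambi, Smyd1, Cox7a1, Mfn2 and Pgam2, at differences of 0.08 to 0.09. Smyd1 is a muscle methyltransferase needed for sarcomere assembly, and Cox7a1 and Pgam2 are the muscle forms of a respiratory subunit and of a glycolytic enzyme. Nearest to Tnni1 were Fdx1, Emilin2, Vdac1, Als2cl and Usp20, at 0.06 to 0.09. Among the nearest to Tpm2 were Bloc1s4, Rpl18, Arpc5 and Ddx19a, at 0.03 to 0.04, of which Arpc5 encodes a subunit of the complex that nucleates branched actin. No other member was among the 5 nearest to any of these 3 genes. Tnni3 lay close to Tnnt2 all the same, at 0.094 against 0.086 for the fifth gene, Pgam2.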

How the data were processed

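RNA from 6 cultures was sequenced after poly-T selection. The authors deposited FPKM per gene and sample without pooling. The submitters' processing notes name fastp, STAR 2.5, HTSeq 0.6.1 and mm10, and use of strand is not given in the sources used here. Of 54532 IDs, 54495 matched GENCODE M21 (GRCm38), which gave symbols, lengths and coordinates. FPKM times exon length gave whole reads, within 0.001, for 96.7% of 28433 annotated genes above 0 and for all 10 members. Intervals cover the spread between samples only, and low counts also carry counting error.

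Samples were grouped by their labels. log2(FPKM + 0.1) was fitted, for 13794 genes averaging 0.5 FPKM or more, with limma 3.58.1 (R 4.3.3; lmFit, eBayes with trend), with Benjamini-Hochberg adjustment over all of them. Ratios were compared by an exact two-sided permutation test. Replicates carry the numbers 1 to 3 in each group, and the labels do not say whether a number stands for a shared isolation. Across genes, deviations from group means correlated at 0.568, 0.268 and 0.506 between same-numbered samples and at most 0.036 otherwise, so same-numbered samples were treated as pairs, a choice that rests on the values. The limma fit was tested on simulated data with less residual spread than most genes had here, so that test does not show how the fit behaves on these data.

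All 10 members are named. Of the thin filament and regulator lists, the 3 genes with the smallest p are named, and for Tnnt2, Tnni1 and Tpm2 the 5 nearest profiles, of which 1 gene is not reported here. Members and lists were chosen with earlier results of these data known. Alternatives were other pseudocounts and filters, protein-coding genes, TPM, quantile normalization, median centring, no trend, the replicate block, leaving out samples, and, chosen after the data were seen, values without the authors' scaling, voom on recovered reads and all alternatives of the blocked fit.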

Additional observations from a re-analysis of the deposited data

How the results depend on the processing

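Without the block, 0 of the 10 genes passed under each alternative, and with the replicate block, which takes the numbers as pairs, 5 did. The blocked count was 1 without a filter on low values (Tnnt3, where 17 of 28445 genes passed), 0 without a trend (0 of 13794), and between 0 and 4 when a pair was left out (1 to 772 of 13794), and otherwise between 5 and 7. The genes gained were Tpm3, with protein-coding genes only, TPM, quantile normalization and voom, and Tpm1, with voom alone (limma adjusted p 0.0457). The exact test of a ratio cannot give less than 0.1 for 3 samples against 3, or 0.25 within 3 pairs, so no ratio could pass with or without the block. Some fold changes near 0 turned their sign. Tnnc1 was 0.32 without AdGFP 1, 0.15 without AdCre 3 and 0.0044 in the blocked fit without replicate 1. Tnni1 was 0.034 as TPM, 0.012 after quantile normalization, 0.0074 without the scaling of the authors and 0.0067 with voom (0.0079 with the block), and 0.086, 0.013 and 0.19 without AdGFP 1, AdGFP 2 and AdCre 3. Tpm2 was -0.040 without AdCre 1. Leaving out single samples gave ranges of -0.55 to 0.32 for Tnnc1, -0.26 to 0.19 for Tnni1 and -0.040 to 0.26 for Tpm2. They were -0.59 to -0.15 for Tpm1 and 0.17 to 0.64 for Tnnt1. The cause was not tested. All 8 ratios kept their direction under the alternatives run. Depth limits Tnni2, Syt8 and Tnnc2, which rested on few reads, and 3 samples a group limit every test.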
